A study of Mus musculus with 4 samples.

Results

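Regions in which a single H4K16ac island of neural progenitor cells (NPC) met a single island of embryonic stem cells (ESC), both narrower than 8 kb, numbered 7644. They were found by joining NPC and ESC islands of chromosomes 1 to 19 that shared at least 1 base, and by keeping regions made of exactly 1 island of each cell type with both widths below 8000 bp. They made up 11.0% of the 69310 regions on these chromosomes, 53.0% of the 14434 regions called in both cell types and 65.4% of the 11697 regions with 1 island of each. All nuclear chromosomes together held 70434 regions. The regions were chosen by called width and overlap in these same libraries, so widths, overlap and read values are given as a description, with no test.

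Acetylation of lysine 16 on histone H4 is written mainly by the acetyltransferase KAT8 (MOF), which works in the MSL and NSL complexes, and is removed by deacetylases that include SIRT1. The charge that it takes away lies in the H4 tail, which can contact a neighbouring nucleosome, and the mark is best known from the up-regulated X chromosome of male fruit flies. In mammalian cells it is found over transcribed genes, at promoters and at enhancers. Narrow islands of a histone mark often lie at single elements such as a promoter or an enhancer, whereas broad islands often span gene bodies.

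NPC were taken after 5 days of differentiation with NB27 and Neuro2 supplements and sorted for GFP. ESC were undifferentiated. The 46c line, from which both derive, carries GFP as a reporter of Sox1, a transcription factor gene active in early neural cells, so that the sort itself chose Sox1-expressing cells. Each cell type had 1 H4K16ac library, made with the same Millipore antibody on chromatin digested with micrococcal nuclease (MNase), and 1 library of MNase-digested input. No replicate check was therefore possible, and no p-value was computed. An island is a stretch of 200 bp windows, with gaps of up to 600 bp, that the program SICER called as enriched. The NPC list held 48278 islands with 24386370 reads, and the ESC list 40570 islands with 17935144 reads. Reads outside islands are not in the lists, and the full depth of the libraries is unknown. Positions are on mouse build mm9, and regions are given by position because no annotation of that build was used here.

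The shared narrow regions were a modest part of either landscape. They held 20.9% of autosomal NPC islands below 8 kb and 22.8% of such ESC islands. Their islands covered 26.9 Mb in NPC and 29.0 Mb in ESC, or 8.77% and 15.1% of the bases of each list. They held 8.50% of NPC island reads and 15.4% of ESC island reads. The bases common to both islands came to 21.2 Mb, which was 78.7% of the member bases in NPC and 73.1% in ESC.

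Called widths of the pair were close on balance and loose region by region. Median widths were 3200 bp in NPC and 3600 bp in ESC, with middle 50% ranges of 2000 to 5000 bp and 2400 to 5000 bp. The median log2 width ratio, NPC over ESC, was -0.05, with an SD across regions of 0.90. The NPC island was the wider in 36.3% of regions, the narrower in 50.8%, and of equal width in 12.9%. It was at least 2-fold narrower in 1311 regions (17.2%) and at least 2-fold wider in 693 (9.07%). Over all 11697 regions with 1 island of each, the shares were 15.5% narrower and 15.1% wider. The rule caps both widths, so nothing is read from the difference between these shares.

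In 5 width classes split at 1, 2, 4 and 6 kb, both islands fell in the same class in 3473 regions (45.4%). The fullest cell had both islands from 2 to below 4 kb, with 1657 regions. Another 857 had both from 4 to below 6 kb, 471 had both from 1 to below 2 kb, and 455 had both from 6 to below 8 kb. Across the 7644 regions the widths had a Spearman rho of 0.41, a description that is bounded by the cap at 8 kb and by the windows that both lists share.

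**Figure D1:**
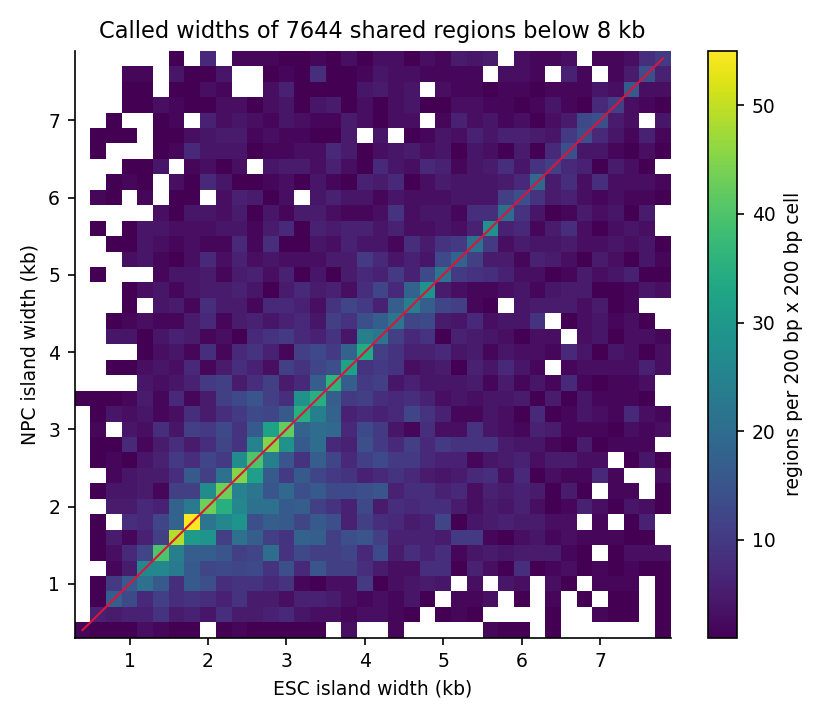
NPC island width (vertical axis, kb) against ESC island width (horizontal axis, kb) in the 7644 regions, with the colour giving the number of regions per cell of 200 bp by 200 bp and the red line marking equal widths. A ridge runs along the line, where 12.9% of regions lie, and the cells below it, with a narrower NPC island, hold 50.8% of regions.

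The ends of the islands coincided in many regions, and where they did not the ESC island reached further more often than the NPC island. Both ends were the same to the base in 795 regions (10.4%), and both lay within 1 window of 200 bp in 1847 (24.2%). The start, meaning the end at the lower position, was the same in 29.9% of regions, further out in NPC in 27.5% and further out in ESC in 42.6%. The other end gave nearly the same split, with 29.8% the same, 27.8% further out in NPC and 42.5% further out in ESC. The centres lay within 500 bp of each other in 55.8% of regions, with a median shift of 0 bp. Over all 14434 regions called in both lists, the start was the same in 26.5%. It was further out in NPC in 34.1% and in ESC in 39.3%. The other end was the same in 26.1% of them. Both ends lay within 200 bp in 18.3%, and the centres within 500 bp in 42.7%. Regions of several islands were measured between their outer ends. Coinciding ends were thus not particular to the narrow regions. Where both islands were at least 8 kb, the start was further out in NPC in 41.5% and in ESC in 32.5%. The rule caps both widths, so the further reach of ESC islands is not read as a trait of the narrow regions.

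**Figure D2:**
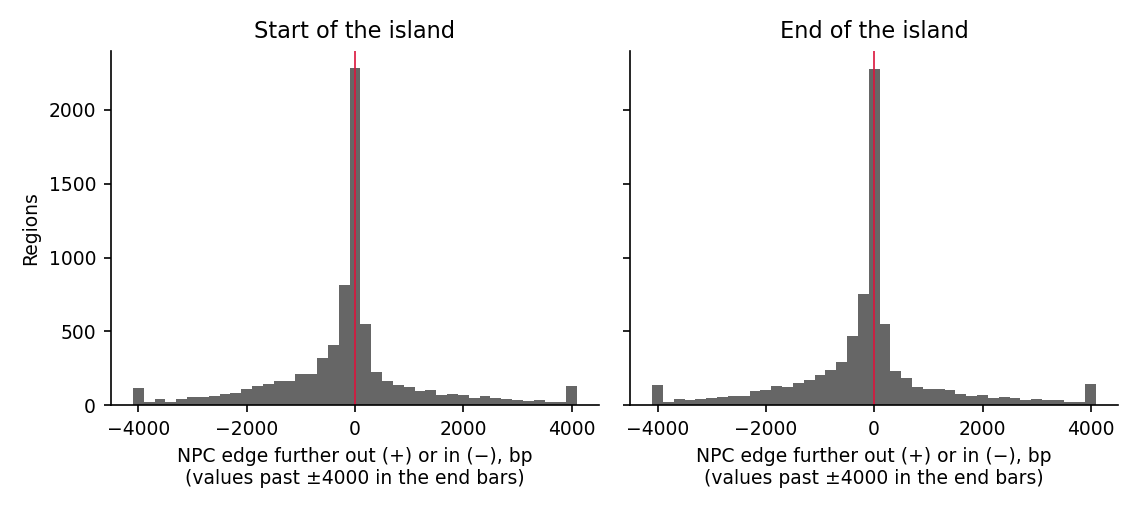
Number of regions (vertical axis) by the distance in bp that the NPC edge lay further out (positive) or further in (negative) than the ESC edge, for the start (left) and the end (right) of the island, with distances past 4000 bp placed in the end bars. Both panels peak at 0, which holds 29.9% of starts and 29.8% of ends, and the negative side is the fuller one.

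By layout, the NPC island lay inside the ESC island in 3246 regions (42.5%), and the ESC island lay inside the NPC island in 1922 (25.1%). Another 1681 (22.0%) were staggered, each island reaching past the other on 1 side. Of the staggered regions, 50.7% had the NPC island towards higher positions, so neither direction along the chromosome prevailed. The median region had 66.7% of its joint span in both islands, with a middle 50% range of 43.2% to 87.5%. At least 80% of the span was common in 2687 regions (35.2%), and under 20% in 330 (4.32%). Over all 14434 regions called in both lists, with several islands measured between their outer ends, these shares were 37.9% and 6.51%. Layouts were not computed for regions outside the rule, which caps both widths. The split by layout is therefore not read as a trait of the narrow regions.

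Regions with an NPC island inside the ESC island had median widths of 2000 bp in NPC and 4000 bp in ESC, and median read densities of 82.5 and 96.6 reads per kb of called island. In the opposite layout the widths were 4600 bp in NPC and 2800 bp in ESC, and the densities 74.0 and 85.2 reads per kb. NPC islands were denser where they were the inner ones, and ESC islands where they were the outer ones. Density also went with width. Over all layouts, NPC islands from 1 to below 2 kb had a median of 91.4 reads per kb, and those from 4 to below 6 kb 72.9. For ESC islands these medians were 108 and 79.8. The part of width in the difference between layouts was not tested.

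Read density was lower in NPC than in ESC in nearly all of these regions when each library was scaled to its island reads. The median island held 235 reads in NPC and 323 in ESC, for which counting error alone is 6.52% and 5.56%. Density had a median of 77.3 reads per kb in NPC (middle 50% 69.1 to 88.5) and 86.3 reads per kb in ESC (73.6 to 117). The median log2 of density, NPC over ESC, scaled to island reads, was -0.58 (SD across regions 0.46, middle 50% -0.94 to -0.38). It was above 0 in 193 regions (2.52%) and reached no more than 0.88. Over all 14434 regions called in both lists the median was -0.51 and 1.65% were above 0, so lower density in NPC was not particular to the narrow ones. Density was at least 2-fold lower in NPC in 1766 of the narrow regions (23.1%), against 15.5% of all 14434. In 0 regions was it at least 2-fold higher in NPC, as in 0% of all regions called in both. All these values come from the contrast that chose the regions, so the shares are set side by side and nothing is read from them.

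The share of regions above 0 moved with the scaling. Without any scaling of reads, the median log2 was -0.14, 32.5% of regions were above 0 and 8.63% were at least 2-fold lower in NPC, against 39.4% and 5.14% of all 14434 regions called in both lists. Scaled by the reads of all regions called in both lists, 28.2% were above 0 and 9.42% at least 2-fold lower, against 34.1% and 5.65% of all of them. Scaled by the median ratio of those regions, which puts 50% of them above 0 by construction, 41.6% of the narrow ones were above 0. The median of the narrow shared regions was below 0 under each of these scalings. Without scaling, their middle 50% range was -0.50 to 0.06. Under the median ratio their median was -0.07, which sets them against all regions called in both lists and does not compare NPC with ESC.

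Counted as reads per 1000000 island reads (RPM), without dividing by width, the median was 9.64 RPM in NPC and 18.0 RPM in ESC. The median log2 was -0.66, and 13.9% of regions were above 0, against -0.49 and 22.1% for all regions called in both lists. RPM was at least 2-fold lower in NPC in 2828 regions (37.0%) and at least 2-fold higher in 134 (1.75%), against 28% and 6.17% of all regions called in both lists. This measure moves with the called width, which the rule limits.

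In the 795 regions with identical ends, both libraries were counted over the same bases. These regions were picked by the agreement of their called ends, so their values are not free of island calling. Their islands had a median width of 3200 bp, with 81.0 reads per kb in NPC and 83.6 in ESC. The median log2 was -0.48, with an SD of 0.30 and a middle 50% range of -0.63 to -0.36. It was above 0 in 7 regions (0.881%), and at least 2-fold lower in NPC in 69 (8.68%). Over all 14434 regions called in both lists these shares were 1.65% and 15.5%. Without scaling, the median of the 795 regions was -0.04 and 40.1% were above 0, against 39.4% of all regions called in both lists. Densities in NPC and ESC had a Spearman rho of 0.67 over these 795 regions, and of 0.40 over all 7644. Both are descriptions, since regions share the libraries and the width of an island bears on its density.

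**Figure D3:**
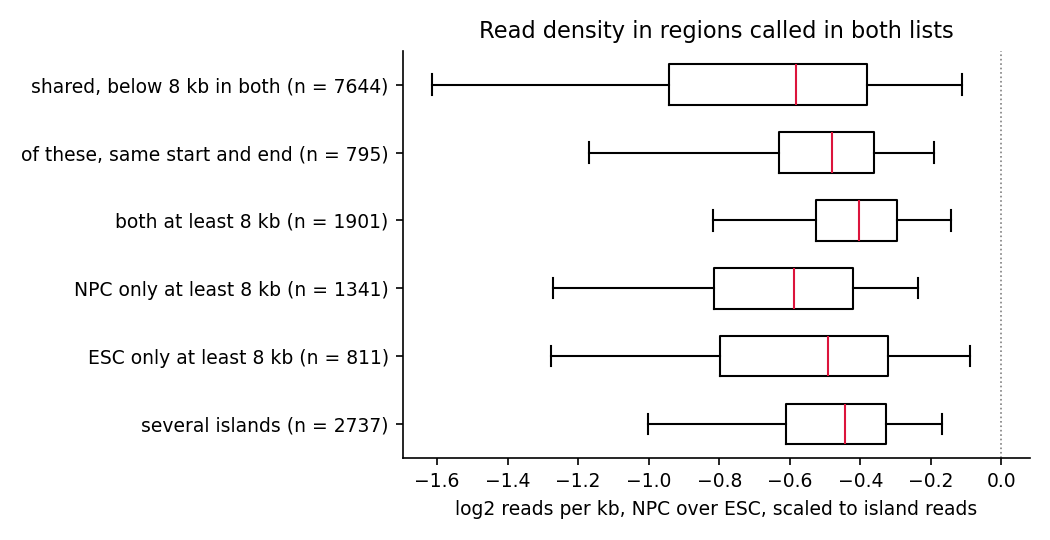
log2 reads per kb, NPC over ESC, scaled to island reads (horizontal axis), for regions called in both lists by class, with the box giving the middle 50%, the red line the median and the whiskers the 5th and 95th percentiles. The shared regions below 8 kb have a median of -0.58 and a lower whisker that ends at -1.62, the furthest down of the classes drawn, and those with the same start and end a median of -0.48, beside -0.40 where both islands are at least 8 kb.

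Beside the other regions called in both lists, the narrow ones had the most scattered density ratios, and a median close to that of regions where only the NPC island reached 8 kb. Where both islands were at least 8 kb (1901 regions), the median log2 was -0.40 with an SD of 0.22, and 2.63% were at least 2-fold lower in NPC. Where only the NPC island reached 8 kb (1341 regions) the median was -0.59 with an SD of 0.32. Where only the ESC island did (811 regions) it was -0.49 with an SD of 0.38. The narrow regions had an SD of 0.46. Narrow regions also held fewer reads per island, and the part of counting error in their wider scatter was not tested. The median joint span common to both was 66.7% in the narrow regions and 82.0% where both islands were at least 8 kb.

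By quintiles of ESC density, the median NPC density was 68.8, 75.7, 79.7, 81.2 and 86.2 reads per kb from the least to the most dense quintile, while the median ESC density was 65.7, 75.8, 86.5, 108 and 159 reads per kb. Sorting by a cell type's own density spreads its medians by construction. By quintiles of NPC density, the medians ran from 63.0 to 104.5 reads per kb in NPC and from 74.2 to 113 in ESC. Scaled to island reads, 1229 of 1528 regions (80.4%) in the densest ESC quintile were at least 2-fold lower in NPC. In the least dense quintile 0 of 1531 were. Over all 14434 regions called in both lists this share was 15.5%. Without scaling, the median log2 was -0.92 in the densest quintile and 0.09 in the least dense. ESC density is part of the ratio, so a dense ESC island lowers it by construction.

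A line at 120 reads per kb, chosen with earlier results of these data known, split the regions into 4 sets. Both islands lay below it in 5720 regions (74.8%), with median widths of 3800 bp in NPC and 3800 bp in ESC, median densities of 75.2 and 79.5 reads per kb and a median log2 of -0.50. The ESC island alone reached it in 1594 regions (20.9%), where densities were 82.5 reads per kb in NPC and 152 in ESC, and the median log2 was -1.36. In these regions the NPC island was 2000 bp and the ESC island 2800 bp wide at the median, and 64.4% had the NPC island inside the ESC island. The line itself sets the ESC medians of these sets apart and holds NPC below it in both.

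Both islands reached the line in 205 regions (2.68%), with 139 reads per kb in NPC and 157 in ESC. Their NPC islands were narrow, with a median of 800 bp against 2400 bp in ESC, and lay inside the ESC island in 76.6% of regions. The NPC island alone reached it in 125 regions (1.64%), again with narrow NPC islands (median 1000 bp, against 3000 bp in ESC), and the median log2 was 0.01. Member NPC islands below 1 kb had a median of 123 reads per kb, and those from 2 to below 4 kb 74.7. For ESC islands these medians were 138 and 87.5. The line therefore favours narrow islands, and the widths and layouts of the sets are not read as traits. The 205 regions were 62.1% of the 330 with an NPC island at the line and 11.4% of the 1799 with an ESC island at it. These shares differ because they divide the same 205 regions by 330 and by 1799. The line is not scaled to depth, and why more ESC than NPC islands reached it was not tested.

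Among islands below 8 kb, those with a narrow partner in the other cell type were denser in NPC and less dense in ESC than islands called in 1 list only. In NPC the median was 77.3 reads per kb for the 7644 paired islands and 75 for the 25453 unpaired ones, both with a median width of 3200 bp. In ESC it was 86.3 reads per kb for the paired and 105 for the 22518 unpaired islands, which were narrower, with median widths of 3600 and 2200 bp. At least 120 reads per kb were found in 4.32% of paired and 1.25% of unpaired NPC islands, and in 23.5% of paired and 36.9% of unpaired ESC islands.

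Density also differed by width, with narrow islands the denser ones. From 1 to below 2 kb, paired and unpaired NPC islands had medians of 91.4 and 86.9 reads per kb, and ESC islands 108 and 122. From 2 to below 4 kb the NPC medians were 74.7 and 72.9, and the ESC medians 87.5 and 89.9. From 4 to below 6 kb they were 72.9 and 72.0 in NPC, and 79.8 and 80.6 in ESC. From 6 to below 8 kb the order in NPC was turned, at 73.1 and 73.4, and the ESC medians were 77.8 and 80.5. The medians differed by less than the middle 50% range of either set in each of these classes.

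The share of islands with a narrow partner ran in opposite directions with width in the NPC and ESC lists. Of NPC islands below 1 kb, 33.5% were in a shared narrow region, and the share was 24.2% from 1 to below 2 kb and between 19.6% and 20.2% in the wider classes. Of ESC islands it was 4.57% below 1 kb, 11.5% from 1 to below 2 kb, 24.5% from 2 to below 4 kb, 34.7% from 4 to below 6 kb and 37.2% from 6 to below 8 kb. The limit of 8 kb applies to both islands, so the shares are part of what the rule fixed.

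**Figure D4:**
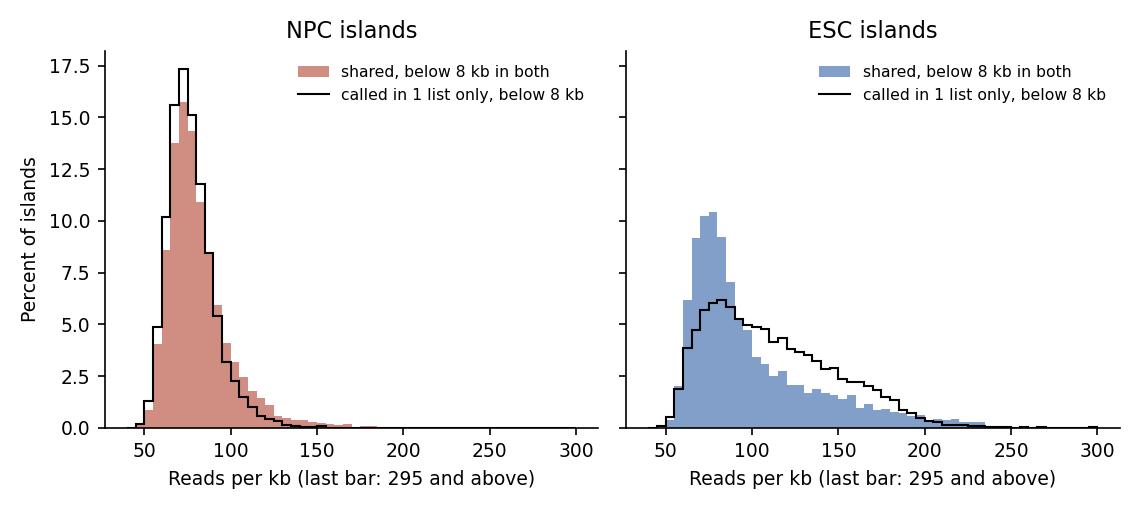
Percent of islands (vertical axis) by reads per kb (horizontal axis, steps of 5) in NPC (left) and ESC (right), for islands of the 7644 shared regions (filled) and for islands below 8 kb called in 1 list only (black line). The NPC outlines nearly coincide, with medians of 77.3 and 75 reads per kb, whereas in ESC the shared islands have a median of 86.3 and the unpaired ones of 105.

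The strongest shared narrow region by reads was the same in both cell types. On chromosome 2, 98502201 to 98507600, both islands had the same ends and held 3209 reads in NPC and 3873 in ESC, or 594 and 717 reads per kb. It was the densest member in either cell type. The log2 of density was -0.71, with an exact 95% interval of -0.78 to -0.65 that covers counting error only. Input reads at this position were not used here, and whether the sequence is repeated in the genome was not tested.

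The next regions by NPC reads had densities above the median in both cell types. Chromosome 18, 13452401 to 13462000, held 1058 NPC and 1037 ESC reads in islands that shared 45.8% of their span. Chromosome 15, 91736801 to 91741000, had identical ends, with 1041 NPC and 840 ESC reads, or 248 and 200 reads per kb, and a log2 of -0.13 (-0.27 to -0.00091). No other island of either list lay within 50 kb of it. Chromosome 6, 87404201 to 87411400, held 969 NPC and 724 ESC reads, with a log2 of -0.06 (-0.20 to 0.08), and chromosome 5, 14931201 to 14939200, held 951 and 1077 reads. On chromosome 6 NPC islands covered 41.6% of the flanking 100 kb and ESC islands 0%, whereas on chromosome 5 the cover was 4.4% in NPC and 45.8% in ESC.

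The regions with most ESC reads, after the one on chromosome 2, were all denser in ESC, a direction that choosing them by ESC reads favours. Chromosome 7, 152123001 to 152129600, held 438 NPC and 1922 ESC reads, or 78.2 and 291 reads per kb, a log2 of -2.34 (-2.49 to -2.19). Chromosome 15, 74914601 to 74918800, was dense in both, with 268 reads per kb in NPC and 402 in ESC, a log2 of -1.03 (-1.15 to -0.91). A pair of neighbouring regions on chromosome 13 had nearly the same form, a long ESC island with a short NPC island in it. From 23622001 to 23628600 there were 145 NPC reads in 1.2 kb and 1626 ESC reads in 6.6 kb. From 23662001 to 23669000 there were 91 NPC reads in 1 kb and also 1626 ESC reads, in 7 kb. Their log2 values of density were -1.47 and -1.80, and those of RPM -3.93 and -4.60.

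The lowest density ratios among regions with at least 100 reads in both cell types came from very dense ESC islands over which NPC density was ordinary or low. Chromosome 4, 133310201 to 133313800, held 201 NPC and 1062 ESC reads, or 67.0 and 295 reads per kb, a log2 of -2.58 (-2.81 to -2.36). Chromosome 13, 21900801 to 21904400, had 80.4 reads per kb in NPC and 324 in ESC, a log2 of -2.45 (-2.67 to -2.24). In these regions most of the span was common to both islands, at 83.3% and 72.2%. In the other 3 a short ESC island met a longer NPC island. The region from 171829601 on chromosome 2 had 53.7 reads per kb in NPC and 222 in ESC, and that from 44698001 on chromosome 15 had 55.7 and 228. In both, the ESC island lay inside the NPC one. In the staggered region from 164667201 on chromosome 1 the values were 65.5 in NPC and 257 in ESC. Without scaling, the 5 density values lay between -2.14 and -1.97. By RPM, with no division by width, the log2 was -2.84 on chromosome 4 and -2.92 on chromosome 13, and -1.14 on chromosome 2, -0.99 on chromosome 15 and -1.63 on chromosome 1. The last 3, where called widths were most unlike, were thus less low by RPM than by density.

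The highest density ratios had the opposite form, a short dense NPC island inside a longer ESC island of ordinary density. Chromosome 3, 54478801 to 54483200, held 149 NPC reads in 0.8 kb and 327 ESC reads in 4.4 kb, or 186 and 74.3 reads per kb, a log2 of 0.88 (0.59 to 1.17). Chromosome 5, 101596801 to 101599000, had 183 reads per kb in NPC and 79.1 in ESC, a log2 of 0.77 (0.41 to 1.12). The region from 12941001 on chromosome 1 had a value of 0.72, that from 129766401 on chromosome 2 of 0.69 and that from 14741201 on chromosome 9 of 0.57. The NPC islands of the 5 were 0.6 to 1.4 kb wide. By RPM all 5 were lower in NPC, with log2 values from -1.58 to -0.87, so the direction of these regions depended on whether reads were divided by width. ESC reads over the short NPC stretch alone are not in the lists.

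Regions with the same ends in both lists and the greatest width spanned 7800 bp each. Chromosome 6, 98906401 to 98914200, held 626 NPC and 617 ESC reads, a log2 of -0.42 (-0.59 to -0.26). Chromosome 9, 113873201 to 113881000, held 596 and 601 reads, and chromosome 12, 109379801 to 109387600, held 533 and 503, with values of -0.46 and -0.36. Chromosome 10, 117191201 to 117199000, held 574 and 634 reads, a value of -0.59. The remaining one, on chromosome 9 from 102527001 to 102534800, stood apart with 612 NPC and 1000 ESC reads and a log2 of -1.15 (-1.30 to -1.01). Scaled to island reads all 5 were lower in NPC, whereas the raw reads of the chromosome 6 and 12 regions were slightly more numerous in NPC.

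At the limit of the rule the values were continuous. The wider island was 7800 bp in 138 members and 8000 bp in 146 regions just outside. Median log2 density was -0.53 inside and -0.50 outside, and the median common span 59.1% and 56.8%. The 3 widest joint spans inside the limit came from islands that barely met. They were 32109601 to 32123000 on chromosome 17, 62437001 to 62449800 on chromosome 10 and 64772601 to 64785200 on chromosome 11, with 5.97%, 12.5% and 9.52% of the span in common. The first 3 regions just outside, all on chromosome 1, began at 43575601, 51822001 and 74677401, with log2 densities of -0.14, -0.52 and -0.64.

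Other islands were near most of these regions. The nearest other island of either list lay at a median of 3 kb, within 5 kb in 61.7% of regions and beyond 50 kb in 216 (2.83%). The nearest other island lay at a median of 5.6 kb in NPC and 7.6 kb in ESC. Over the 50 kb on each side, NPC islands covered a median of 20.8% and ESC islands 14.6%. Where both islands were at least 8 kb, these medians were 43.8% and 29.0%. Around unpaired islands below 8 kb they were 19.6% in NPC and 5.4% in ESC for NPC islands, and 6.6% and 6.6% for ESC islands. Surroundings of the narrow shared regions were therefore covered in both cell types, less than those of broad shared regions and, in ESC, more than those of unpaired islands.

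Width ratios went with the cover of the surroundings, which the rule did not use but which comes from the same libraries. Where the NPC island was at least 2-fold wider (693 regions), NPC islands covered a median of 23.0% of the flanking 100 kb and ESC islands 10.6%, and NPC cover was the larger in 70.1% of regions. Where widths were within 2-fold (5640 regions), the medians were 22.0% in NPC and 15% in ESC, and NPC cover was the larger in 60.1%. Where the NPC island was at least 2-fold narrower (1311 regions), they were 15.4% in NPC and 14.6% in ESC, with NPC cover the larger in 47.9%. The middle 50% ranges of these sets overlapped widely.

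**Figure D5:**
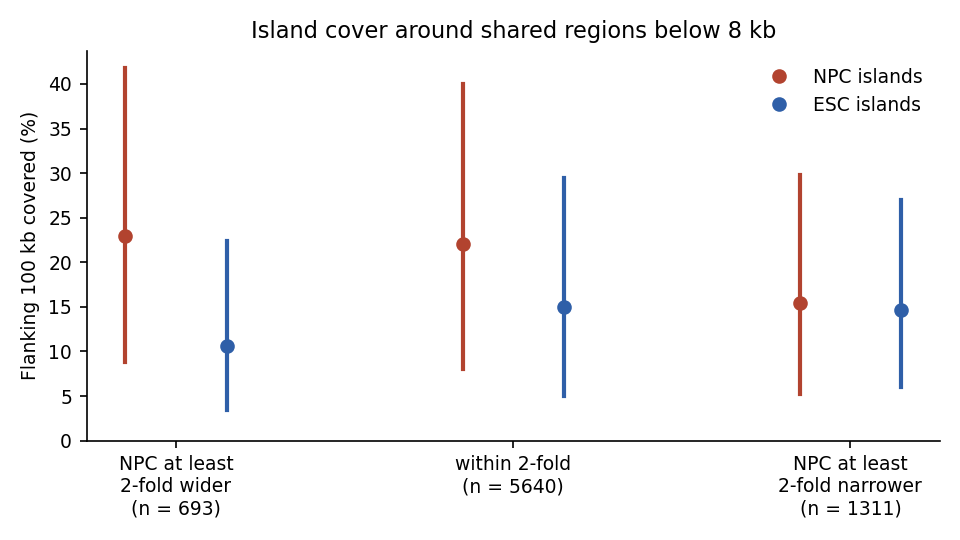
Percent of the flanking 100 kb covered by other NPC islands (red) and other ESC islands (blue), with dots for medians and bars for the middle 50% of regions, by how the width of the NPC island compared with that of the ESC island. NPC and ESC cover were 23.0% and 10.6% at regions with a wider NPC island, and 15.4% and 14.6% at regions with a narrower one.

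Regions with a density at least 2-fold lower in NPC lay in sparser surroundings, and so did those with a higher density in NPC. In these 1766 regions the nearest other island was at a median of 5.6 kb, and flanks were covered to 15.4% in NPC and 11.8% in ESC. In the 5685 regions with a smaller difference below 0 the distance was 2.4 kb, with a cover of 22.6% in NPC and 15.6% in ESC. In the 193 regions with a higher density in NPC the distance was 5.4 kb, with a cover of 10.8% in NPC and 9.2% in ESC. Median widths in NPC and ESC were 2400 and 2800 bp in the 1766 regions. They were 3600 and 3800 bp in the 5685, and 1200 and 3800 bp in the 193. Where neither island reached 120 reads per kb, cover was 23.2% in NPC and 15.8% in ESC. Where the ESC island alone did, it was 13.8% and 11.8%. The part of width and density in these differences was not tested.

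Neighbouring narrow shared regions were only loosely alike. Consecutive regions on a chromosome were a median of 97.4 kb apart (middle 50% 28.4 to 274 kb). In the 937 pairs less than 10 kb apart, Spearman's rho between neighbours was 0.35 for ESC density, 0.13 for NPC density, 0.18 for the log2 density ratio and 0.10 for the log2 width ratio. In the 2443 pairs at least 200 kb apart these were 0.06, 0.02, 0.01 and 0.02. Neighbours share libraries and local sequence, and the values are descriptions.

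Every autosome held such regions, from 256 on chromosome 19 to 603 on chromosome 2. They ranged from 2.24 per Mb on chromosome 3 to 4.22 per Mb on chromosome 11, which were also the least and the most covered autosomes in both cell types. As a share of regions called in both lists they made up from 45.9% on chromosome 5 to 65.1% on chromosome 3. The median log2 density lay between -0.65 on chromosome 3 and -0.53 on chromosome 12, and the median log2 width between -0.13 on chromosome 13 and 0. The share of regions at least 2-fold lower in NPC ranged from 14.3% on chromosome 18 to 30.4% on chromosome 3, where the ESC islands were the narrowest and densest at the median (3000 bp and 94.5 reads per kb). Over chromosomes 1 to 19 together this share was 23.1%, against 15.5% of all regions called in both lists. For the latter, shares by chromosome were not computed, so the range is not read as particular to the narrow regions.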

How the data were processed

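Per the submitters' processing notes, the build was mm9 and the tools were SICER 1.1 (a caller of broad islands), Bowtie 0.12.7, CASAVA 1.8.2, bedtools 2.10.1 and SAMtools 0.1.7. Windows of 200 bp, gaps of 600 bp and an FDR of 0.01 stand in the names of the lists. The deposited whole number per island was taken as its unscaled count of H4K16ac reads. Duplicate removal and the use of the input are not given in the sources used here. Each list comes from 1 library, and 0 columns of per-sample values were left unused.

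Deposited starts count from 0 and ends are inclusive, and printed positions count from 1. Regions, widths, overlap and density were computed with scipy 1.17.1, pandas 2.3.3 and numpy 2.4.6 under Python 3.11.15, and drawn with matplotlib 3.10.9. The number of regions, 69310, equalled that of bedtools 2.31.1, and the code was tested on simulated data. Density is reads per kb of called island. Scaling divided by all island reads of a list, X, Y and mitochondrial islands included. Intervals of single regions are exact Clopper-Pearson intervals at 95% and cover counting error only, since PCR copies of 1 molecule cannot be told from separate molecules. The regions, their classes and the 120 reads per kb line were chosen with earlier results of these data known.

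Named regions were the 5 with most RPM in each cell type, the 5 highest and 5 lowest log2 densities with at least 100 reads in both, the 5 widest with identical ends, the 3 widest spans and the first 3 regions outside the limit. Gene-level results, base composition and sequences were not run, because no genome or annotation of mm9 was used here. Alternatives covered overlap, width and read limits, joining, very dense islands and scaling.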

Additional observations from a re-analysis of the deposited data

How the results depend on the processing

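Of 58 values recomputed under 10 alternatives, 37 left the reported value's 95% interval, 21 did not (or were counts within 1.5 times), and 0 changed sign. Only the medians of log2 width, log2 density and log2 RPM could change sign, since counts, spans and shares cannot fall below 0. The intervals treat regions as independent and leave out culture-to-culture variation. For none of the 37 was the cause tested. The number of regions was 5462 when at least 50% of each island had to be shared, 5824 and 8798 with limits of 6000 and 10000 bp, 7288 from 1000 bp, 7264 from 100 reads, 5204 when islands less than 2000 bp apart were joined, and 7268 without islands above the 99th percentile of density. The median log2 width was 0, so no longer lower in NPC, with 50% shared, from 1000 bp, from 100 reads and without very dense islands, and it was -0.078 at 6000 bp and -0.13 with joining, and the median common span 78.6% with 50% shared, 69.1% at 6000 bp, 65% at 10000 bp, 68.2% from 1000 bp, 68.2% from 100 reads and 60% with joining. The median log2 density was -0.545 with 50% shared, -0.609 at 6000 bp, -0.572 at 10000 bp and -0.628 with joining, and -0.174, -0.139 and -0.072 when scaled by reads of regions called in both, not scaled, and scaled by the median ratio. The median log2 RPM was -0.590 with 50% shared, -0.708 at 6000 bp, -0.630 at 10000 bp, -0.637 from 1000 bp, -0.626 from 100 reads, -0.782 with joining, -0.627 without very dense islands, and -0.252, -0.218 and -0.168 under the 3 scalings in the same order. The share with the ESC island inside the NPC island was 26.7% with 50% shared, 23.5% at 6000 bp, 26.3% at 10000 bp and 22.8% with joining. The share at least 2-fold lower in density in NPC was 20.7%, 26.3%, 21.6% and 26.8% under those settings, 22.01% without very dense islands, and 9.42%, 8.63% and 6.96% under the 3 scalings. Over all 14434 regions called in both lists that share was 15.5% when scaled to island reads, and 5.65%, 5.14% and 4.06% under the 3 scalings. The unknown library depth limits every scaling. No paired analysis was possible because each cell type had 1 H4K16ac library.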
